A study of Homo sapiens with 18 samples.

Results

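The mitosis and spindle genes are 40 genes of the 19774 measured in the series. They were taken by name (current or older symbol) from a fixed list, which was chosen with earlier results of these data known. The same holds for the other gene lists used below, so comparisons with all genes are descriptions. Each gene was read from its single-gene probe set with the highest mean. Messenger RNA was measured in 18 established cancer cell lines, with 1 microarray of biotin-labelled total RNA for each line. The lines are colorectal except HUTU80, which is a duodenal line. The medium is named in a growth protocol shared by all samples, and lines were assigned by matching their titles to the names in it. By that text 8 lines (HCT116, KM12, RCM1, SNUC1, LS513, COLO320HSR, MDST8 and NCIH716) grew in RPMI-1640, with serum, antibiotics, added glucose and pyruvate, and 10 (OUMS23, HUTU80, SW48, RKO, CAR1, CL40, HT55, LS180, SW1463 and SW948) in DMEM/F-12 with serum and antibiotics, without those 2 additions named; both media held glutamine and HEPES. The labels name no treatment; each line was measured once, so single lines have no replicate error.

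Values are log2 intensities, in which 1 unit is a factor of 2. A background level of 4.70 was set from genes known from non-colonic tissues, and all 40 genes exceeded it in all 18 lines (720 values between 5.04 and 11.94). Arrays had medians of 3.65 to 3.69, and 9491 to 10046 genes exceeded background in a line. All 6 epithelial markers (EPCAM, CDH1, KRT8, KRT18, KRT19 and CLDN4) exceeded background in 12 lines. SW48 and NCIH716 had 5 of them, RKO and HUTU80 had 2, MDST8 had 1 and COLO320HSR had 0. All 6 intestinal markers (CDX1, CDX2, VIL1, CDH17, LGALS4 and GPA33) did so in 10 lines, while COLO320HSR had 2, MDST8 had 0 and the other 6 lines had 1. Of 6 fibroblast markers HUTU80 had 5 above background, NCIH716 had 2, 4 lines had 1 and 12 lines had 0. Of 7 leukocyte and 6 endothelial markers no line had more than 1.

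Mitosis is driven by the kinase CDK1 bound to cyclins A and B, with help from Polo-like and Aurora kinases. Kinetochores tie chromosomes to spindle microtubules, the spindle checkpoint holds back the anaphase-promoting complex (APC/C) until all chromosomes are attached, and the central spindle and a contractile ring then split the cell. Transcripts of these genes accumulate from S phase to mitosis under the DREAM and MYB-MuvB complexes and FOXM1. These factors act at a promoter element, the cell cycle genes homology region (CHR), that often lies near CCAAT boxes bound by NF-Y. In bulk cultures fewer dividing cells and less RNA per dividing cell cannot be told apart.

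Promoters are shown because the genes share this textbook element, which the choice of members did not use. The RefSeq promoter table (GRCh38.p14, from 250 bases before to 50 after each start) held 34 of the 40 genes; AURKA, BUB3, TTK, UBE2C, BIRC5 and TPX2 had no entry. The CHR spellings searched, on both strands, were TTTGAA, its reverse complement TTCAAA and the palindrome TTCGAA. Other spellings were not searched, so a gene without these letters may still hold a CHR. At least 1 of those searched was present in 28 of 34 members (82.4%). The share was 19.5% of 27305 genes in the table and 16.3% of 10762 genes above background in at least 1 line. CCAAT, or on the opposite strand ATTGG, was present in 27 of 34 members (79.4%), against 39.7% of all genes in the table. Both stood in a single promoter for 23 members (67.6%), against 7.85%. Genes with several starts were counted once, with all their starts; among genes with 1 start the CHR letters were in 25 of 30 members (83.3%) and 17.2% of 22114 genes. CENPE and KIF2C held neither set of letters, and the other members without the CHR letters were CCNA2, CCNB1, AURKB and KIF20A. A match of letters is a description of the sequence and not a measured site.

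The windows that follow are the 130 bases before the start (GRCh38.p14), written 5′ to 3′ on the gene's strand with CHR and CCAAT letters in capitals. CCNB2, CDC20, PLK1, CDCA8 and KIF4A hold both sets of letters, at differing distances and orders, and KIF2C lacks both. ANLN and the brightest probe set of MKI67 did not follow the other members in these lines.
CCNB2 (chr15:59105016-59105145, plus strand): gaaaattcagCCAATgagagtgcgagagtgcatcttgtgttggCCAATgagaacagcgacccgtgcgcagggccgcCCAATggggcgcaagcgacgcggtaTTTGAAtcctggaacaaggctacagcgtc
CDC20 (chr1:43358851-43358980, plus strand): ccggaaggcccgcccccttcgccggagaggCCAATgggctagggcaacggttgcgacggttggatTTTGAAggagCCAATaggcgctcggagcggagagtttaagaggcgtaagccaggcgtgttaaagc
PLK1 (chr16:23678759-23678888, plus strand): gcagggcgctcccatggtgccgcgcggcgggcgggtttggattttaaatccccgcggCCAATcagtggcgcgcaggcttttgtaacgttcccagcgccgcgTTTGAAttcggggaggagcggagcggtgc
CDCA8 (chr1:37692386-37692515, plus strand): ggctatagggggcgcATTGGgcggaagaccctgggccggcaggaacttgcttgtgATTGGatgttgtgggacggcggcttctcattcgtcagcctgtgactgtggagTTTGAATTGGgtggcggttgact
KIF4A (chrX:70289974-70290103, plus strand): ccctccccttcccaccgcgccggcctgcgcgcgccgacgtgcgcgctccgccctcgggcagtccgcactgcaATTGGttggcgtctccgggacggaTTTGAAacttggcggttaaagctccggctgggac
KIF2C (chr1:44739707-44739836, plus strand): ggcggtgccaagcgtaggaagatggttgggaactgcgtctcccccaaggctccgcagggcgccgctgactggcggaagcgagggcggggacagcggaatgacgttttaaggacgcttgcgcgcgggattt
MKI67 (chr10:128126424-128126553, minus strand): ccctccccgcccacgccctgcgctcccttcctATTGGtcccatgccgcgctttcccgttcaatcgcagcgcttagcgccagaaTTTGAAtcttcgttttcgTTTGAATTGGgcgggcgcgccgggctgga
ANLN (chr7:36389732-36389861, plus strand): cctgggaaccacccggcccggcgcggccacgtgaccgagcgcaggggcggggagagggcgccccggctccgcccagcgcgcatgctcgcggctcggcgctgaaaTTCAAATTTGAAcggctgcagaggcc

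In CCNB2 the CHR letters began 29 bases before the start, and CCAAT boxes began 54, 87 and 120 bases before it. In PLK1 the CHR letters began 29 and the CCAAT letters 73 bases before the start, and in KIF4A these distances were 34 and 58 bases. In CDCA8 and MKI67 one ATTGG overlaps the last base of a TTTGAA. MKI67 held 2 TTTGAA, 29 and 47 bases before its start, and ANLN held TTCAAA and TTTGAA side by side with no CCAAT or ATTGG. The median correlation of a gene with the other members over the lines was r = 0.52 in the 28 members with CHR letters and r = 0.68 in the 6 without.

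The first question was how much the genes differed between lines and whether they moved together. None of the 40 ranged over 3 log2 units (8-fold) or more, against 37% of the 13234 genes above background in at least 1 line and 12.2% of the 7015 above it in every line. Members had a median SD of 0.45 log2 units, against 0.50 in those 7015 genes. SDs ran from 0.28 for PRC1, which bundles microtubules of the central spindle, to 0.73 for MKI67, which encodes the proliferation marker Ki-67.

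The members moved together in part. Over 780 pairs of members the mean Pearson correlation across the 18 lines was r = 0.26, while over all pairs of genes above background in every line it was r = 0.02. It was r = 0.22 within the 8 RPMI-1640 lines and r = 0.31 within the 10 DMEM/F-12 lines. All these points share arrays, so these are descriptions over 18 lines without a test. Of the pairs, 131 reached r = 0.5 and 122 (15.6%) were below 0. The same counts over pairs of all genes are not given here. The highest was CCNA2 with PLK1 (r = 0.85), and the lowest AURKA with KIF11 (r = -0.50). Component 1 of the members' centred values held 32.5% of their variance and component 2 held 14.4%.

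**Figure D1:**
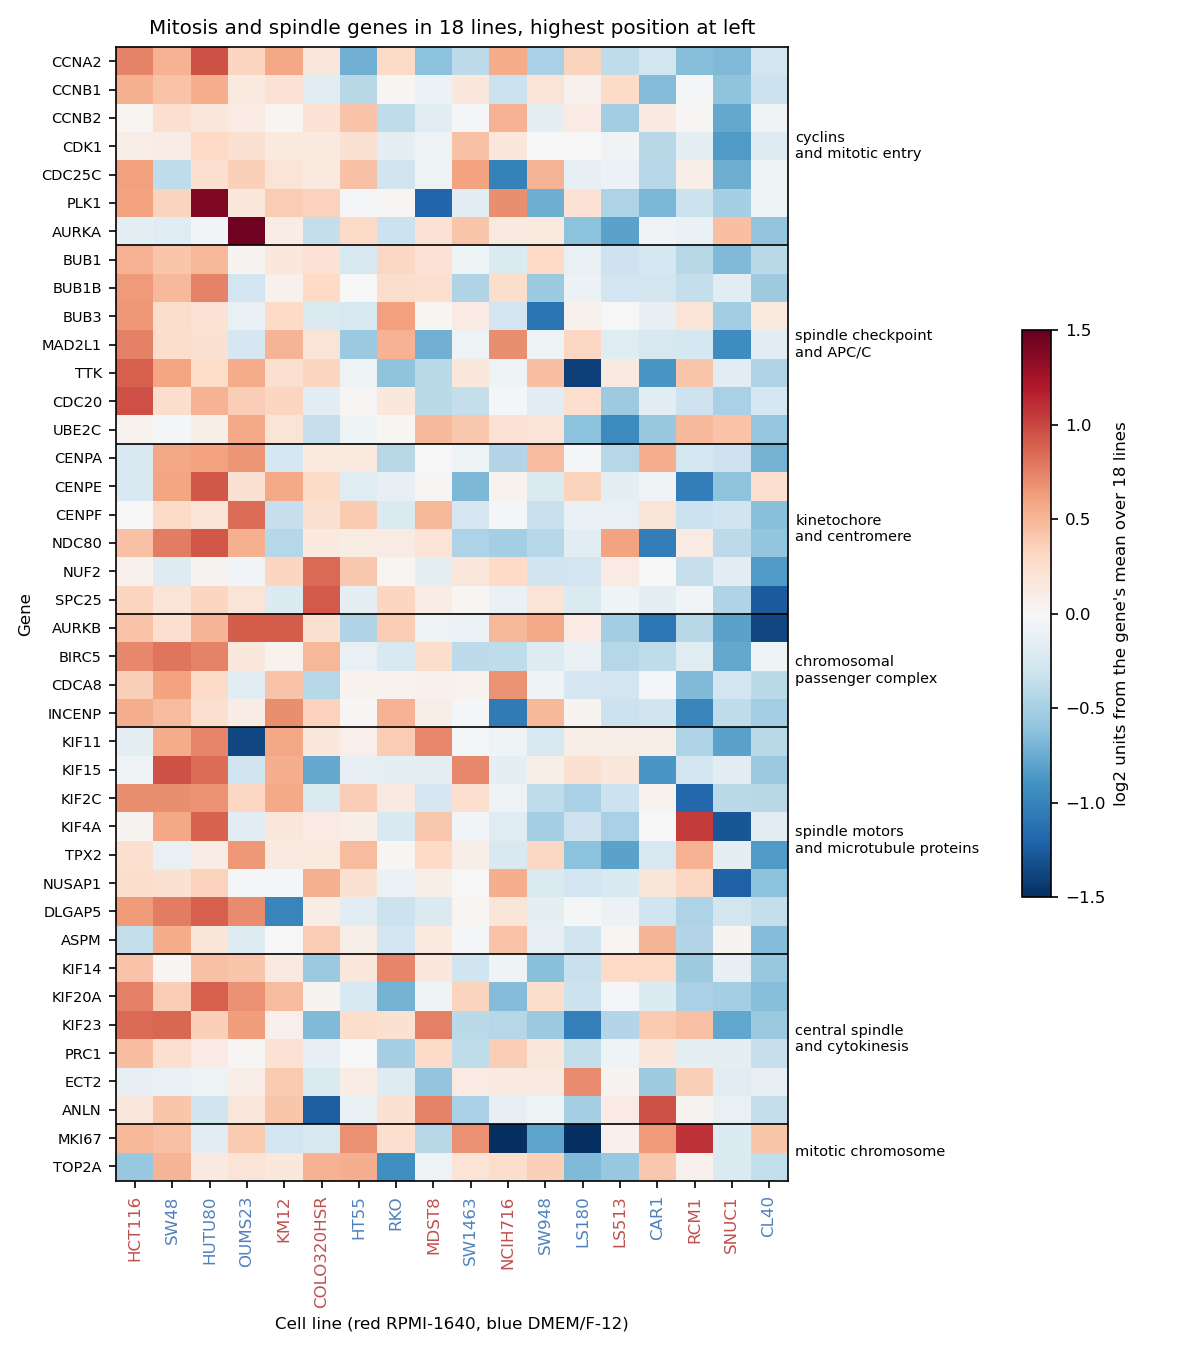
Heat map of the 40 genes (rows, by role) in the 18 lines (columns, ordered by the median deviation of the genes), coloured by log2 units from each gene's mean over the lines; line names are red for RPMI-1640 and blue for DMEM/F-12. HCT116, SW48 and HUTU80 at the left are mostly above the mean, with 32, 34 and 36 of 40 genes, and SNUC1 and CL40 at the right have 37 of 40 below it.

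The second question was where each line stood. A line's position is the median, over the 40 genes, of the deviation from the gene's mean, and a line was called high or low where at least 30 genes lay on that side. Positions ran from 0.43 in HCT116 to -0.41 in CL40, less than 1 log2 unit in all. By the mean in place of the median HUTU80 was highest (0.43), with SW48 at 0.37 and HCT116 at 0.33. SNUC1 (-0.43) was then below CL40 (-0.41). HCT116 had 32 genes above their mean, where 51.1% of all genes above background were. SW48 had a position of 0.42 and 34 genes above (51.9% of all genes), and HUTU80 had 0.33 and 36 genes (49.4%). OUMS23 had 0.20 with 30 genes above (45% of all genes), and KM12 had 0.20 with 33 (47.9%). These 5 lines were called high. SNUC1 had a position of -0.40 and CL40 of -0.41, each with 37 genes below the mean, where 55.7% and 59.5% of all genes were, and these were the 2 lines called low. With the mean of all probe sets of a gene 4 lines were called low, and with 1 line left out 1 to 3 were. The other 11 lines lay between -0.22 (RCM1) and 0.15 (COLO320HSR).

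Within a line the members were spread as well. The SD of the 40 deviations was 0.30 to 0.49 log2 units, lowest in HT55 and highest in RCM1. HUTU80 held the highest value of 9 members, HCT116 of 7, and SW48 and OUMS23 of 5 each. SNUC1 and CL40 each held the lowest value of 7. The same counts over all genes are not given here, so these are not set apart from the panel at large. The median of all genes above background in every line moved the same way, from -0.11 in CL40 to 0.13 in RKO (r = 0.78 with the position over 18 lines, r = 0.82 in RPMI-1640 and r = 0.78 in DMEM/F-12), and its part in the positions was not tested. With each array shifted so that its median over the 7015 genes above background in every line was the same, HCT116, SW48 and HUTU80 stood at 0.34, 0.33 and 0.28, and SNUC1 and CL40 at -0.41 and -0.29.

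**Figure D2:**
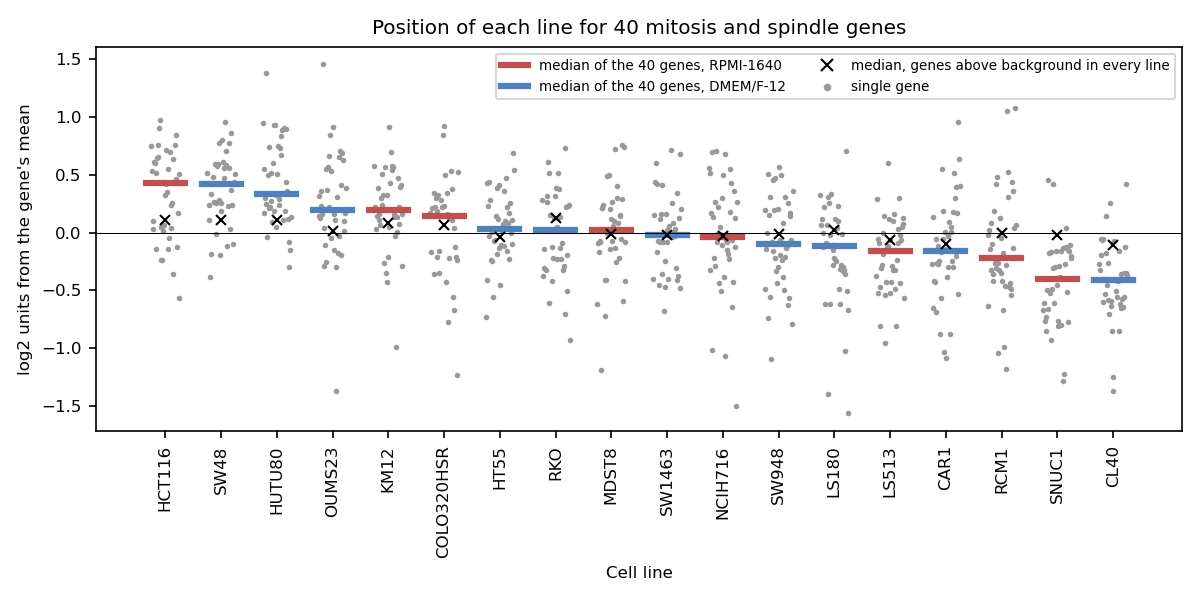
Deviation of each of the 40 genes from its mean (grey points, log2 units) in each line; the bar is their median (red RPMI-1640, blue DMEM/F-12) and the cross the median of genes above background in every line. Bars run from 0.43 in HCT116 to -0.41 in CL40 and crosses from -0.11 to 0.13.

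Cyclins and mitotic entry kinases came first by role. CCNA2, cyclin A2, had a lowest value of 8.91 in HT55, a median of 9.58 and a highest of 10.58 in HUTU80. CCNB1, cyclin B1, ran from 10.17 in CAR1 to 11.36 in HUTU80 with a median of 10.86. CDK1, their kinase partner, ran from 10.20 in SNUC1 to 11.49 in SW1463 with a median of 11.10, and SNUC1 lay apart from the other RPMI-1640 lines, while the next value over all lines was 10.63 in CAR1. These 3 genes followed the mean of the other members at r = 0.66 to 0.67. PLK1, a kinase of centrosome and spindle, had the widest range of this group, from 5.49 in MDST8 through a median of 6.68 to 8.07 in HUTU80, a 5.94-fold difference. CCNB2, cyclin B2, followed the others at r = 0.47 and CDC25C, the phosphatase that activates CDK1, at r = 0.35. The brightest 2 probe sets of CCNB2 had r = 0.18 with each other, and the second of them was below background in all 18 lines.

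AURKA, a kinase of spindle poles, did not follow the mean of the other members (r = 0.22, rho = 0.18). With the single genes of its own role group AURKA had r = -0.10 (CCNB1) to r = 0.19 (CDC25C). It was 11.94 in OUMS23, with a median of 10.44 and a lowest value of 9.68 in LS513. OUMS23 stood about 1 log2 unit above the next DMEM/F-12 line, SW1463 (10.90). Its 3 probe sets gave r = 0.22 to 0.30 with the other members.

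Spindle checkpoint genes held the member most in step with the rest. BUB1, a checkpoint kinase at kinetochores, ran from 8.32 in SNUC1 to 9.50 in HCT116 with a median of 8.96, and had r = 0.81 with the mean of the other members (rho = 0.77, and r = 0.73 without the 2 lines farthest from its median). BUB1B, which encodes the checkpoint protein BubR1, had r = 0.69. CDC20, the APC/C activator that the checkpoint restrains, was 11.51 in HCT116, 10.46 at the median and lowest in LS513 (r = 0.73). TTK, the kinase that starts checkpoint signalling, ran from 6.83 in LS180 to 9.13 in HCT116 with a median of 8.38, and in LS180 its gap to the median deviation of the other members was -1.29 log2 units. MAD2L1, which encodes Mad2, and BUB3, a binding partner of BUB1, had r = 0.45 and r = 0.36. BUB3 was lowest in SW948 (10.19, against a median of 11.33). UBE2C, the ubiquitin-conjugating enzyme of the APC/C, ran from 10.21 in LS513 to 11.73 in OUMS23 with a median of 11.23 and had r = 0.26.

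Kinetochore and centromere genes were lowest in CL40 (median deviation -0.67 over 6 genes) and highest in HUTU80 (0.46). SPC25, a subunit of the NDC80 complex that binds microtubules, was 7.26 in CL40, 8.50 at the median and 9.44 in COLO320HSR. CL40 lay 1 log2 unit or more below every other DMEM/F-12 line for SPC25. NUF2, another subunit, also ran from CL40 (7.74) to COLO320HSR (9.44). NDC80 itself ran from 7.50 in CAR1 to 9.47 in HUTU80. CENPE, a kinetochore motor, was 9.08 in HUTU80 and 7.11 in RCM1, while CENPF, another large kinetochore protein, and CENPA, the histone H3 variant of centromeres, were both highest in OUMS23 (10.71 and 10.18) and lowest in CL40 (9.24 and 8.81). SPC25 and NUF2 thus peaked in COLO320HSR and NDC80 in HUTU80, and their correlations with the other members were r = 0.60 for SPC25, r = 0.59 for NDC80 and r = 0.37 for NUF2.

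The 4 genes of the chromosomal passenger complex, which corrects chromosome attachment, had the highest mean pairwise correlation of the 7 role groups (r = 0.46). AURKB, its kinase, ran from 7.44 in CL40 through 8.99 to 9.73 in KM12, a 4.87-fold difference. BIRC5, which encodes survivin, ran from 8.62 in SNUC1 through 9.28 to 10.19 in SW48 and had r = 0.79 with the other members. CDCA8, borealin, had r = 0.62. INCENP, the scaffold, ran from 5.04 in NCIH716 through 6.18 to 6.81 in KM12 (r = 0.55). In NCIH716 INCENP had a gap of -1.05 to the other members, while CDCA8 had its highest value there (9.50).

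Spindle motors and microtubule proteins as a group followed the other roles at r = 0.85. KIF2C, a kinesin that depolymerises microtubules, ran from 8.69 in RCM1 through 9.85 to 10.56 in SW48 (r = 0.77 with the other members, rho = 0.85). KIF11, the motor that separates spindle poles, was 7.46 in OUMS23, where the median over lines was 8.91 and the highest value 9.56 in HUTU80. KIF11 in OUMS23 had a gap of -1.57 to the other members, the largest among the 720 values. Its correlation with the others was r = 0.32 over all lines, r = 0.68 without OUMS23 and r = 0.19 without SNUC1. KIF4A, a chromosome-associated kinesin, was 9.50 in RCM1, 8.44 at the median and 7.17 in SNUC1. RCM1 was thus highest for KIF4A and lowest for KIF2C. DLGAP5, which stabilises spindle microtubules, was lowest in KM12 (8.24, against a median of 9.11), although KM12 was called high. NUSAP1, a microtubule-bundling protein, had r = 0.63, and TPX2, which activates AURKA at the spindle, had r = 0.49. KIF15, a motor that backs up KIF11, had r = 0.46, and ASPM, a protein of spindle poles, had r = 0.29.

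Among genes of the central spindle and cytokinesis, KIF20A and KIF23, kinesins of the midzone, followed the rest (r = 0.77 and r = 0.64). KIF20A ran from 8.65 in RKO through 9.32 to 10.25 in HUTU80, and KIF23 from 7.32 in LS180 through 8.49 to 9.20 in SW48. PRC1 (r = 0.50) stayed between 9.94 and 10.91 in all lines, and KIF14, a motor that binds PRC1, had r = 0.45. ECT2, the exchange factor that activates RhoA for the contractile ring, had the lowest correlation of all members (r = -0.07, rho = -0.09). It ran from 9.16 in MDST8 through 9.73 to 10.46 in LS180, a line in which KIF23 was lowest. ANLN, anillin, a scaffold of the contractile ring, had r = 0.08. It was 11.23 in CAR1, 10.25 at the median and 9.03 in COLO320HSR, where its gap to the other members was -1.38.

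Across all roles 7 members had a correlation under 0.3 with the mean of the others: ECT2, MKI67, ANLN, AURKA, UBE2C, TOP2A and ASPM. That is 17.5% of members (11 members with the arrays shifted as above), while 74% of all genes above background in at least 1 line (68% of those above it in every line) had a correlation under 0.3 with the mean of the 40. With 1 line left out, AURKA passed 0.3 without SNUC1 (r = 0.37) and UBE2C without SNUC1 (r = 0.43) or RCM1 (r = 0.32). TOP2A, which untangles DNA and ran from 10.10 in RKO through 11.17 to 11.57 in HT55, had r = 0.27, and r = 0.43, 0.32 and 0.31 without HCT116, RKO and CAR1. ASPM, from 8.54 in CL40 through 9.21 to 9.75 in SW48, had r = 0.42 without HCT116 and r = 0.32 to 0.38 without SNUC1, NCIH716, CAR1 or OUMS23. ECT2, ANLN and MKI67 stayed under 0.3 with any 1 line left out. They were also under 0.3 within each medium. Within DMEM/F-12 lines UBE2C, ASPM, AURKA and TOP2A had r = 0.59, 0.57, 0.40 and 0.39. Within RPMI-1640 lines the same genes had r = -0.07, -0.16, -0.17 and 0.03. Some further members were under 0.3 in only 1 medium, such as NDC80 in RPMI-1640 (r = 0.14) and CDC25C in DMEM/F-12 (r = 0.09). Of the 720 values, 15 (2.08%), in 11 genes, lay 1 log2 unit or more from the median deviation of the other members in the same line, against 18% of values of all genes and 7.49% of genes above background in every line, set against the median of those genes. With the probe set of largest SD for each gene there were 26 such values.

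**Figure D3:**
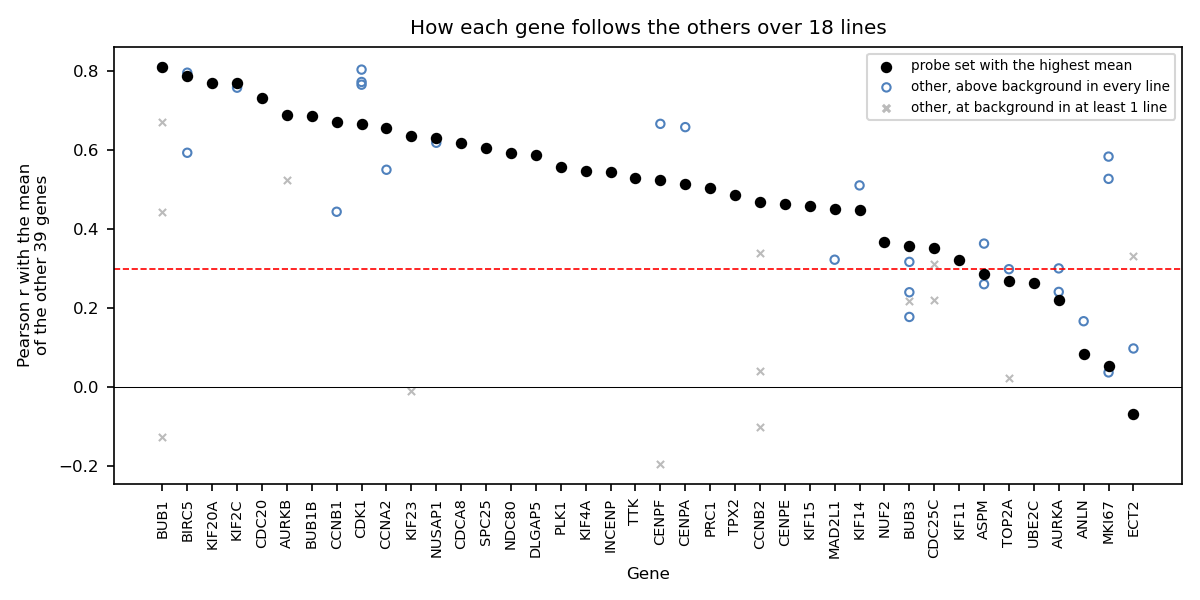
Pearson correlation over 18 lines of each gene with the mean of the others, for the probe set with the highest mean (black), other probe sets above background in every line (blue circles) and those at background in at least 1 line (grey crosses); the dashed line is r = 0.3. BUB1 is at r = 0.81 and ECT2 at r = -0.07, and MKI67 has 2 probe sets near 0 and 2 above 0.5.

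MKI67 gave different answers by probe set. The brightest (mean 9.49) was 10.57 in RCM1, 9.65 at the median, 7.99 in NCIH716 and 7.93 in LS180. In RCM1 it lay 1.34 above the other members, and in LS180 and NCIH716 its gaps to them were -1.45 and -1.48. Its correlation with the other members was r = 0.05, and that of the second probe set (mean 8.08) was r = 0.04; these 2 had r = 0.94 with each other. The other two (means 6.91 and 6.29) had r = 0.58 and r = 0.53 with the other members and r = 0.60 and r = 0.65 with the brightest. All 4 exceeded background in every line. The one with mean 6.91 ran from 5.88 in SW948 to 7.46 in HCT116. With the mean of its probe sets MKI67 had r = 0.30 with the other members. Among the 18 members whose brightest 2 probe sets both exceeded background everywhere, those probe sets had a median r = 0.93 with each other.

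Members on the same chromosome moved together more than others. The 53 pairs on a shared chromosome (RefSeq, GRCh38.p14) had a mean correlation of r = 0.42, and the 727 pairs on different chromosomes r = 0.25. AURKA, TPX2 and UBE2C, all on chromosome 20, had r = 0.70 to 0.78 with one another, although AURKA and UBE2C did not follow the 40 as a whole; this set was singled out after its values were seen. Their mean deviation was highest in OUMS23 (0.89) and lowest in LS513 (-0.85), CL40 (-0.68) and LS180 (-0.62). SNUC1 stood at 0.25 for these 3 and at -0.40 for the 40. DNA copy number was not analysed here, and its part was not tested.

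**Figure D4:**
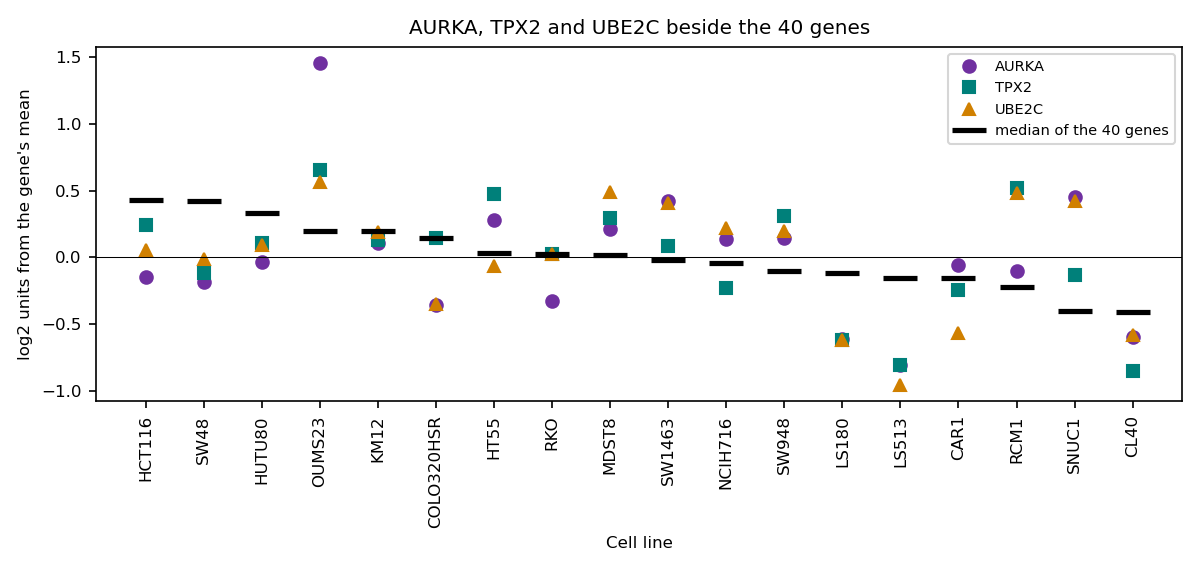
Deviation from the gene's mean (log2 units) of AURKA, TPX2 and UBE2C in each line, beside the median of the 40 genes (black bars), lines ordered as in the plot of positions. All 3 genes are above 0.5 in OUMS23 and below -0.5 in LS180, LS513 and CL40.

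Other genes of the mitotic machinery were described by the same correlation with the mean of the 40, whose median over all genes above background in at least 1 line was r = 0.06, with 26% at r = 0.3 or more. Of 18 condensin and cohesin genes 13 reached r = 0.3 (median r = 0.47). NCAPH, a condensin subunit, was highest at r = 0.82, and SMC2, its partner in the ring, was lowest at r = -0.13. Of 22 further kinetochore genes 15 did so (median r = 0.38), as did 11 of 18 spindle and centrosome genes (median r = 0.42). Of 13 APC/C core subunits 6 did so (median r = 0.20). None of 5 further cytokinesis genes did (median r = -0.28). CHMP4B, a subunit of the membrane-cutting ESCRT machinery, had r = -0.62.

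Within these lists a few genes of large SD stood out in single lines. HMMR, which encodes a spindle protein, was 5.98 in RKO, 9.55 at the median and 10.46 in LS513 (SD 0.97, r = 0.15). CENPU, a kinetochore gene, ran from 8.20 in SNUC1 to 11.09 in COLO320HSR, and STMN1, which binds tubulin, from 7.15 in CL40 to 9.35 in COLO320HSR. BORA, the cofactor that lets AURKA activate PLK1, ran from 7.42 in NCIH716 to 10.13 in SW948 with r = -0.06. Of 10 CDK1 regulators 6 reached r = 0.3, WEE1, the inhibitory kinase, with r = 0.69.

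DNA replication genes had the highest median correlation with the members among these lists. Of 26 genes 21 reached r = 0.3 (median r = 0.55), and the median deviation of the list correlated with the position at r = 0.79 (rho = 0.76, n = 18 lines, r = 0.87 without HT55 and HCT116). The value was r = 0.92 in the 8 RPMI-1640 lines and r = 0.73 in the 10 DMEM/F-12 lines. For the median of all genes above background in every line it was r = 0.78, with r = 0.82 and r = 0.78 by medium. The correlation over all lines is thus not particular to the replication genes. By the same measure the further spindle and centrosome genes (r = 0.89) and the condensin and cohesin genes (r = 0.87) were closer to the position. The further kinetochore genes had r = 0.77, and the remaining cell cycle lists were lower. HT55 departed most, with replication genes at -0.63 and mitotic genes at 0.03. MCM10, a replication initiation factor, was 9.39 in HUTU80 and 6.45 in CL40, and CCNE1, cyclin E1, was 8.57 in HUTU80 and 5.08 in HT55.

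Of 12 transcription factors of mitotic genes 6 reached r = 0.3 (median r = 0.28). FOXM1 ran from 7.14 in LS513 through 8.12 to 8.91 in CAR1, and had r = 0.30 with the position (rho = 0.24), which became r = 0.01 without LS513 and SNUC1. MYBL2, the MYB protein of the MuvB complex, ran from 6.08 in MDST8 through 7.82 to 9.77 in OUMS23 (r = 0.13, rho = 0.15). With the mean of the members the 12 ran from r = -0.54 for RBL2 to r = 0.68 for NFYC. RBL2 encodes the pocket protein p130 of the repressive DREAM complex, and NFYC a subunit of NF-Y. RBL1, another pocket protein, had r = -0.13, and NFYA, another subunit of NF-Y, had r = 0.55. E2F1 exceeded background in 7 lines, so most of its values are not above background. CDKN1A, the CDK inhibitor p21, ran from 4.13 in NCIH716 to 8.70 in MDST8 and had r = -0.15 with the position, and the 13 measured p53 targets had a median r = 0.06.

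The intestinal markers split the lines. In 9 lines their median deviation was below 0, from -3.74 in RKO to -1.19 in NCIH716, and the positions for mitotic genes there ran from -0.16 in CAR1 to 0.43 in HCT116 with a median of 0.15, and 7 of 9 were above 0. In 9 lines it was above 0, from 0.77 in KM12 to 3.90 in SNUC1, with positions from -0.41 in CL40 to 0.20 in KM12, a median of -0.11, and 2 of 9 above 0. The ranges overlap. Because the lines fell apart on this list, correlations are given within each side: r = -0.36 (rho = -0.45) in the first 9 and r = -0.55 (rho = -0.40) in the second. The median of all genes above background in every line differed in a similar way. In the first 9 it was below 0 only in MDST8, NCIH716 and CAR1, with a highest value of 0.13 in RKO. In the second it was above 0 only in KM12 (0.08) and LS180 (0.02). The split is thus not particular to the mitotic genes, and its cause was not tested.

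**Figure D5:**
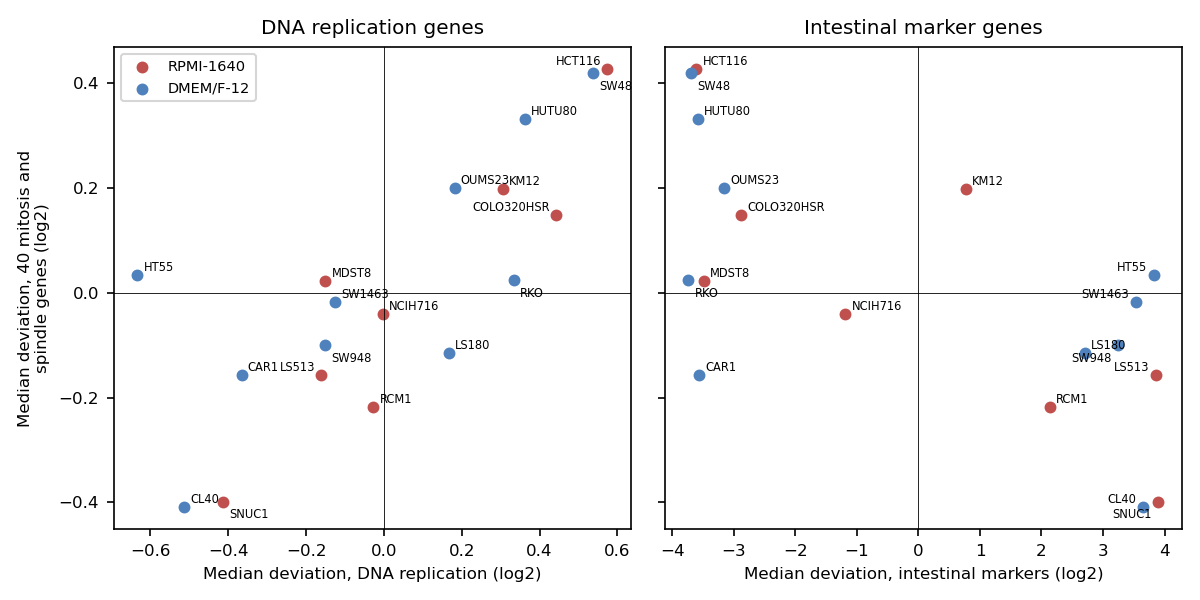
Position of each line for the 40 genes (vertical axis, log2 units) against the median deviation of 26 DNA replication genes (left) and 6 intestinal markers (right); red points are RPMI-1640 and blue points DMEM/F-12 lines. HCT116 and SW48 are high on both axes at the left, and on the right the lines form 2 clouds that overlap in position.

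Of genes outside the set and above background in every line, the 10 most like the mean of the 40 were HDGFL2 (r = 0.86), PARN, LMNB2, ERI3, ZNF146, NCAPH, METTL16, MAD2L2, RPAIN and SP4 (r = 0.80), over 18 lines. LMNB2, lamin B2 of the nuclear envelope, ran from 7.23 in CL40 to 8.64 in OUMS23, and MAD2L2, an adaptor of translesion synthesis, from 7.55 in SNUC1 to 10.43 in SW48. The 5 least like it were EXOC1 (r = -0.82), GUK1, PLEKHM1, SPTBN1 and TAOK3 (r = -0.77). GUK1, guanylate kinase, ran from 8.92 in HUTU80 to 10.36 in LS180. These were picked as extremes of the 7015 genes above background in every line, less the 40 members.

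The last comparison asked whether the genes differed between culture media, a grouping taken from the growth protocol shared by all samples. Every line grew in 1 medium, so the medium and the identity of the lines cannot be told apart. None of the 40 genes differed by limma at a Benjamini-Hochberg adjusted p under 0.05 over 13234 genes, and 0% of all genes did; at an unadjusted p under 0.05, 1 member and 329 genes (2.49%) did. That member was CENPA, with a lowest value of 9.08, a median of 9.25 and a highest of 9.66 in RPMI-1640 lines, against 8.81, 9.82 and 10.18 in DMEM/F-12 lines. The ranges overlap, and the difference was -0.40 ± 0.18 log2 units (SE, limma adjusted p = 0.999, lines: 8 and 10). For TTK the means were 8.40 ± 0.40 in RPMI-1640 and 8.10 ± 0.67 in DMEM/F-12 (SD), a difference of 0.31 ± 0.27 (SE). Over the 40 genes 15 had a higher and 25 a lower mean in RPMI-1640, with differences from -0.40 to 0.31 and a median of -0.05, beside a median of 0.00 over all genes, and for 0 of 40 genes did the 2 ranges of values separate, as for 1 of 13234. Positions ran from -0.40 in SNUC1 to 0.43 in HCT116 with a median of -0.01 in RPMI-1640, and from -0.41 in CL40 to 0.42 in SW48 with a median of 0.00 in DMEM/F-12.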

How the data were processed

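The authors deposited log2 intensities of 54613 probe sets on 18 arrays. The submitters' processing notes name RMA and affy, and no version is given in the sources used here. The values were used without further normalization. By the array annotation 40914 probe sets had 1 gene, 864 several and 12835 none; 40858 of the first had an Entrez ID in RefSeq (GRCh38.p14). As background level served the 95th percentile over 71 probe sets, which belong to 41 of 50 listed genes of other tissues. The members and lists were chosen with earlier results of these data known. Media were compared with limma 3.58.1 (trend, R 4.3.3) over genes above background in at least 1 line, with Benjamini-Hochberg adjustment. Other values were computed in Python 3.11.15 with numpy 2.4.6. Named were the members by spread and correlation within their role, those out of step, FOXM1, MYBL2, CDKN1A, E2F1, list genes of largest SD, and the 10 most and 5 least alike genes. WEE1, RBL2 and NFYC were added after their values were seen. Scripts were tested on simulated data. The number of arrays limits the precision. Alternatives are in the closing section.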

Additional observations from a re-analysis of the deposited data

Results flagged for a closer look

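In each medium the highest and the lowest line were tested for lying apart from the others, for the 40 genes and the position (82 tests), and 7 values did. Chance alone marks about 1 in 20. Among RPMI-1640 lines these were CDK1 in SNUC1 (10.20, next 10.91 in RCM1), NUSAP1 in SNUC1 (9.02, with LS513 next) and ANLN in COLO320HSR (9.03, next 10.14 in NCIH716). Among DMEM/F-12 lines they were PLK1 in HUTU80 (8.07, next 7.01 in SW48), AURKA in OUMS23 (11.94, next 10.90 in SW1463), BUB3 in SW948 (10.19, next 11.04 in HT55) and SPC25 in CL40 (7.26, next 8.29 in LS180). No line's position lay apart in this way in either medium.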

How the results depend on the processing

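The mean pairwise correlation stayed between 0.21 (array scaling, each array shifted to one median over genes above background in every line) and 0.27 (mean of all probe sets) over 5 alternatives, and between 0.23 and 0.28 with each line left out. The 5 high and 2 low lines kept their sign in all alternatives run, but their order moved, with HUTU80 above HCT116 by the mean. Lines called high were 2 when 34 genes were required, and 4 or 5 with a line left out; lines called low were 4 with the mean of all probe sets, and 1 to 3 with a line left out, where 1 arose only by leaving out SNUC1 or CL40 itself. Members out of step numbered 11 after array scaling, 17 at a limit of 0.5 and 1 at a limit of 0, and 5 to 9 with a line left out. Gaps within a line numbered 26 with the probe set of largest SD, 1 at 1.5 log2 units, and 11 to 16 with a line left out. At a limit of 2 log2 units 9 members ranged that far. The median range was 1.68 log2 units in members and 1.84 in all genes above background in every line. ECT2 gave r = 0.32 with its probe set of largest SD, which is at background in 14 lines. No member was called between media in any of 25 alternative fits. The cause of these changes was not tested, apart from the changed limits and left-out lines. INCENP, at 5.04 in NCIH716, came closest to the background level.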
